A study of Homo sapiens with 9 samples.

Results

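Genes with editing sites counted in the stop-codon column and none counted in coding sequence or the 3′ UTR were examined. There were 69, of 1348 protein-coding genes listed for either of the RNA-binding fusion proteins ADAR-SUGP1 and GPATCH8-ADAR. How far the stop-codon region reaches is not given, so a stop-codon site here need not lie in the stop codon itself. The genes were chosen by measured values: at least 1 editing site in the stop-codon column of either list, and a count of 0 for coding sequence and for the 3′ UTR in both lists, after counts were summed over the protein-coding transcripts of a gene. Their stop-codon, coding and 3′ UTR counts are therefore a description and were not tested. In all, 160 genes had a stop-codon site, and the other 91 also had a coding or 3′ UTR site.

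The assay was TRIBE-seq, in which an RNA-binding protein is joined to the deaminase domain of Drosophila ADAR, in a hyperactive form, so that adenosines near bound RNA become inosines, which RNA-seq reads as guanosines. The host was 293T, an easily transfected line derived from human embryonic kidney and expressing the SV40 large T antigen, labelled SF3B1 wild type in every sample. Cells were transfected with ADAR-SUGP1 (2 libraries, run 2), GPATCH8-ADAR (2 libraries, run 1) or a non-targeting control fusion (2 libraries in run 2 and 2 in run 1), and 1 library of run 2 came from untransfected cells. Transfected cells were sorted for GFP 24 h after transfection. The fusions were expressed from plasmids, so the marks are those of introduced proteins, not of the endogenous ones. Each deposited list holds 1 count per transcript after sites of endogenous and control editing were taken away and sites seen in both replicates were kept. It gives no value per library, no editing level, no position and no read depth, so no spread between libraries could be set against any difference, and no test was run. Fusion and run cannot be told apart.

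SUGP1 and GPATCH8 carry a G-patch, a short motif through which proteins of this family engage DEAH-box RNA helicases, and both are linked to branchpoint choice by the splicing factor SF3B1. A stop codon ends the reading frame and is read by release factors during translation. Isoforms of a gene can end at different stop codons, for example in an alternative last exon or in a retained intron, so the same genomic stretch can surround the stop codon of one isoform and lie in an intron of another. The lists contain no sequence and no coordinates, and the stop-codon sequences are not shown here.

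Stop-codon sites of these genes came mainly from the ADAR-SUGP1 list. With ADAR-SUGP1, 64 of the 69 genes had 74 stop-codon sites, within a list where 143 of 995 protein-coding genes (14.4%) had such a site. With GPATCH8-ADAR, 6 genes had 6 sites, within a list where 20 of 498 (4.02%) had one. CPSF3L (current symbol INTS11), the RNA endonuclease of the Integrator complex, had the most, with 3 stop-codon sites with ADAR-SUGP1 and 0 with GPATCH8-ADAR. With ADAR-SUGP1, 8 genes had 2 stop-codon sites, namely HNRNPU, RAD9A, RBM5, RNPC3, RPS15, SAMD11, WBSCR22 and ZRSR1, and the remaining 55 had 1. The 6 genes with GPATCH8-ADAR, each with 1 stop-codon site, were CDV3, DHDDS, LDHA, PIEZO1, TTLL3 and ZRSR1.

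**Figure D1:**
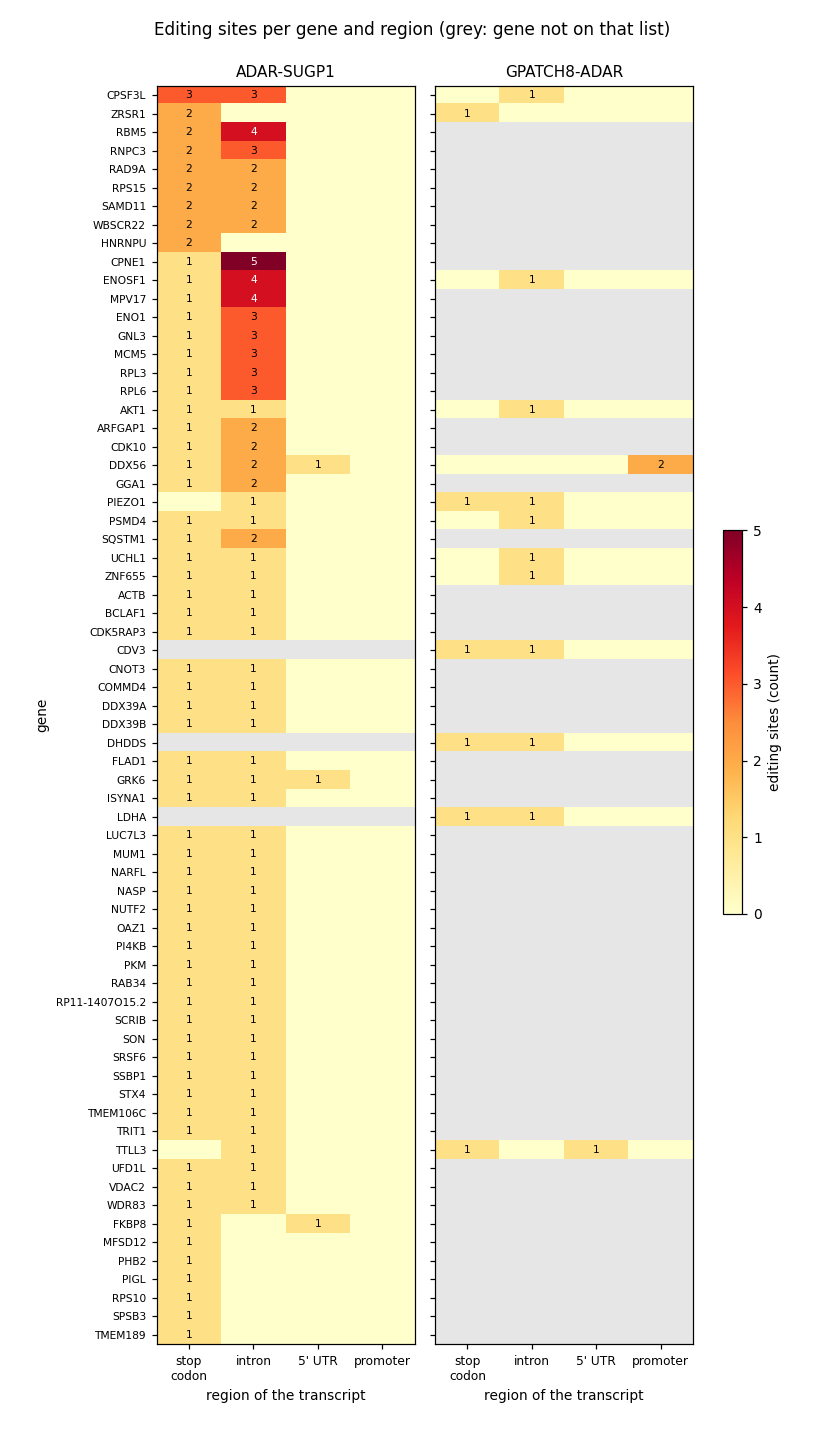
Editing sites (count, colour and number) of 68 of the 69 genes by region, with ADAR-SUGP1 on the left and GPATCH8-ADAR on the right; grey marks a gene absent from that list. Most genes pair 1 stop-codon site with 1 or more intronic sites, CPNE1 has the most intronic sites (5), and DDX56 is the gene with promoter sites (2, with GPATCH8-ADAR).

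Most of these genes also had sites counted in the transcript body, mainly in introns and in a few genes in the 5′ UTR. Among the 64 genes with a stop-codon site with ADAR-SUGP1, 55 (85.9%, exact binomial 95% interval 74.98 to 93.36) had intronic sites, 91 sites in all, beside 63.1% of all protein-coding genes on that list. With GPATCH8-ADAR 4 of 6 genes (66.7%, 22.3 to 95.7) had 1 intronic site each, beside 74.3% of the list. A 5′ UTR site was present in 4 of 64 genes (6.25%, 1.73 to 15.24; 5.73% of the list) and in 1 of 6 genes (16.7%, 0.421 to 64.1; 1.81% of the list). The share with any body site was 87.5% (56 of 64; 76.8 to 94.4) with ADAR-SUGP1 and 83.3% (5 of 6; 35.9 to 99.6) with GPATCH8-ADAR, beside 96.5% and 97.8% of the lists. The selection took away every gene whose body sites were coding or in the 3′ UTR, so these shares cannot be read as a preference for introns. The intervals cover counting error over genes, which are not replicates.

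Intronic and stop-codon sites of a gene were usually listed under different transcripts. In 48 of the 64 genes with ADAR-SUGP1 and in 5 of 6 with GPATCH8-ADAR, the transcript with the stop-codon site had no body site, and another transcript of the gene carried the intronic or 5′ UTR sites. ACTB, cytoplasmic actin, is an example, with 1 stop-codon site in ENST00000425660.1 and 1 intronic site in ENST00000331789.5. LDHA, the muscle-type subunit of lactate dehydrogenase, had the same arrangement with GPATCH8-ADAR, 1 stop-codon site in ENST00000545467.1 and 1 intronic site in ENST00000422447.3. The stop-codon transcript itself carried the intronic sites in 6 genes with ADAR-SUGP1. These were the kinase gene CDK10 and the ribosomal protein gene RPL3, with 2 and 3 intronic sites, and MUM1, SRSF6, SSBP1 and VDAC2, with 1 each. In DDX56, a nucleolar helicase, and GRK6, a kinase of G protein-coupled receptors, the stop-codon transcript held 1 site in the 5′ UTR and another transcript held 2 and 1 intronic sites. Of the stop-codon transcripts of these genes, 57 of 65 with ADAR-SUGP1 and 6 of 6 with GPATCH8-ADAR had no body site. In the stop-codon genes that the selection left out, these numbers were 30 of 81 and 5 of 14. The selection removed genes with coding or 3′ UTR sites, which are body sites that a stop-codon transcript could also carry. The higher shares here therefore cannot be separated from the selection, and the difference was not tested.

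**Figure D2:**
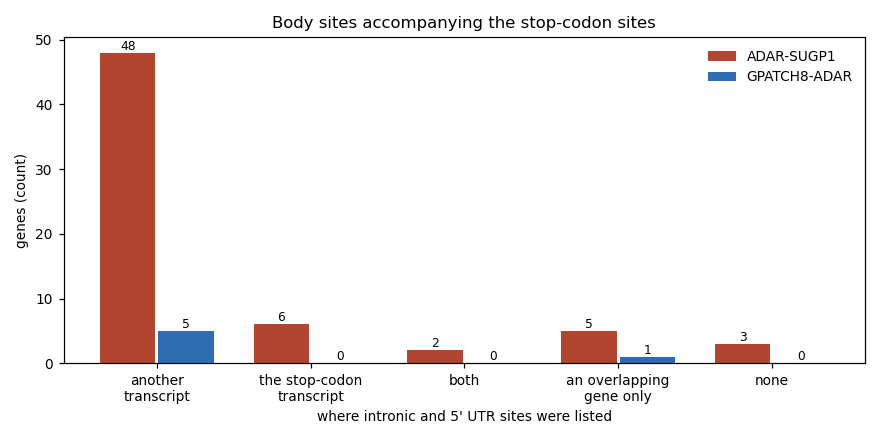
Number of genes (vertical axis) by where the intronic and 5′ UTR sites that accompany a stop-codon site were listed, for ADAR-SUGP1 and GPATCH8-ADAR. Another transcript of the gene is the tallest class with both, 48 of 64 and 5 of 6 genes, and 3 genes with ADAR-SUGP1 have no such site in their own or an overlapping listed gene.

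The number of stop-codon sites was set against the number of body sites of the same gene. Only genes with at least 1 body site were counted, 56 of 64 with ADAR-SUGP1 and 5 of 6 with GPATCH8-ADAR. In 39 of these 56 genes and 5 of these 5 the counts were equal, and in 17 genes with ADAR-SUGP1 body sites were more numerous. Body sites were fewer in 0, an outcome that could not occur in a counted gene with 1 stop-codon site. The stop-codon genes that the selection left out had equal counts in 63 of 79 with ADAR-SUGP1 and 11 of 14 with GPATCH8-ADAR, and fewer body than stop-codon sites in 0. For genes with 1 stop-codon site this says little: 34 of 49 (69.4%) had 1 body site with ADAR-SUGP1, while 81.2% of edited genes without a stop-codon site also had 1. Another 7 genes with ADAR-SUGP1 had 2 or more stop-codon sites and a body site, and in 5 of them the counts were equal. RAD9A, a subunit of the checkpoint clamp, had 2 stop-codon sites in ENST00000538013.1 and 2 intronic sites in ENST00000543808.1. The ribosomal protein gene RPS15, SAMD11 and WBSCR22 (current symbol BUD23, a methyltransferase of ribosomal RNA) likewise had 2 stop-codon sites in one transcript and 2 intronic sites in another. In CPSF3L the 3 stop-codon sites lay in ENST00000527098.1 (1) and ENST00000532772.1 (2), and ENST00000435064.1 carried 3 intronic sites. The counts differed in RBM5 (2 stop-codon and 4 intronic sites) and RNPC3 (2 and 3). Of these 7 genes 4 (57.1%) had 2 body sites and 0 had 1. Of the 825 edited genes without a stop-codon site with ADAR-SUGP1, 13.3% had 2 and 81.2% had 1. A match of counts therefore cannot be told apart here from a larger number of body sites per gene. The difference was not tested. HNRNPU and ZRSR1, with 2 stop-codon sites and no body site with ADAR-SUGP1, were not among the 7. Without positions, an intronic site and a stop-codon site of a gene cannot be told from a single adenosine counted for both transcripts.

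**Figure D3:**
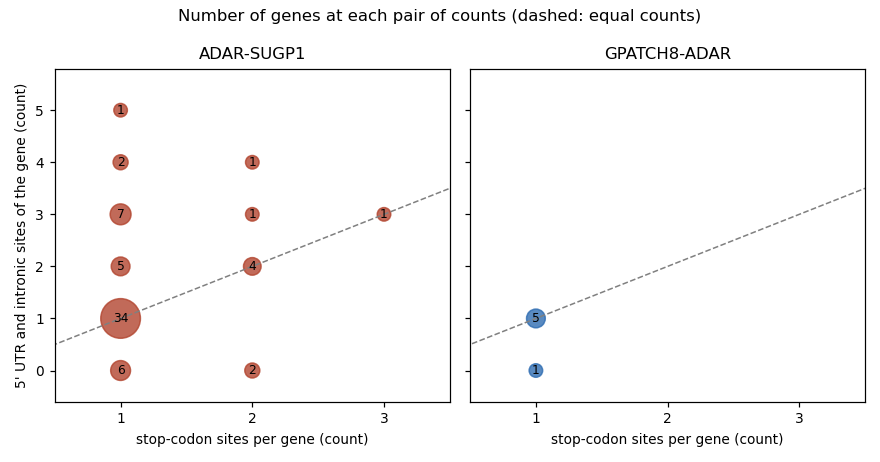
Stop-codon sites per gene (horizontal axis) against intronic plus 5′ UTR sites of the same gene (vertical axis), with ADAR-SUGP1 left and GPATCH8-ADAR right; the number in a circle is the number of genes, and circle area grows with it. No circle lies between 0 and the dashed line of equal counts, and the largest group is 34 genes with 1 site of each kind. Circles at 0 are genes with no body site under their own symbol.

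With ADAR-SUGP1, 8 genes had a stop-codon site and no body site under their own symbol, and for 5 of these a listed gene that overlaps them carried body sites. The same share for the other listed genes with no body site is not given here, so 5 of 8 has no matched background. Gene overlaps were taken from a RefSeq table of another build (GRCh38.p14) and used only to say which genes share a locus. ZRSR1 (current symbol ZRSR2P1, a copy of the 3′ splice-site factor gene ZRSR2 that RefSeq calls a pseudogene and the lists call protein-coding) had 2 stop-codon sites in ENST00000391338.1 with ADAR-SUGP1 and 1 with GPATCH8-ADAR. The gene it overlaps, REEP5, had 2 intronic sites with ADAR-SUGP1 and 1 with GPATCH8-ADAR, so the counts were equal in both lists. RPS10, a protein of the small ribosomal subunit, had 1 stop-codon site, and the readthrough gene RPS10-NUDT3 had 1 intronic site. TMEM189 (current symbol PEDS1, the desaturase of plasmalogen synthesis) had 1 stop-codon site, and TMEM189-UBE2V1 had 1 intronic site. MFSD12, a lysosomal cysteine transporter, had 1, and C19orf71 had 1 intronic site. SPSB3, a substrate receptor of ubiquitin ligases, had 1, and EME2 had 2 intronic sites over 3 listed transcripts. HNRNPU, a nuclear matrix and RNA-binding protein, with 2 stop-codon sites in ENST00000444376.2, and PHB2, a mitochondrial prohibitin, and PIGL, an enzyme of GPI-anchor synthesis, with 1 each, had no body site in their own or an overlapping listed gene.

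Overlap with another listed gene was found for 8 of the 62 genes whose symbols matched the table with ADAR-SUGP1 (12.9%, exact binomial 95% interval 5.74 to 23.9), beside 6.67% (5.14 to 8.49) of the other protein-coding genes on that list, and for 2 of 6 (33.3%, 4.33 to 77.7), beside 3.74% (2.23 to 5.85), with GPATCH8-ADAR. The difference was not tested. Apart from the genes already described, SAMD11 overlapped NOC2L (1 intronic site), SQSTM1 overlapped MGAT4B (1 intronic site) and C5orf45 (1 in the 3′ UTR), WDR83 overlapped DHPS (1 intronic site) and WDR83OS (1 in the 5′ UTR), and TTLL3 overlapped ARPC4-TTLL3, which was listed with 0 sites. Whether strand was used to assign sites is not given in the sources used here, so sites of overlapping genes cannot be told apart. Ribosomal protein genes, ACTB and LDHA are known to have processed copies in the genome, and their part in these counts was not tested.

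Several transcripts of a gene were listed for 50 of the 64 genes with ADAR-SUGP1 (78.1%, 66.0 to 87.5) and for 5 of 6 with GPATCH8-ADAR (83.3%, 35.9 to 99.6), beside 19.6% and 8.63% of the protein-coding genes on those lists. These 50 were the 48 genes with body sites in another transcript alone and the 2 with body sites in both. The 5 with GPATCH8-ADAR were likewise the 5 described above, so this share restates that arrangement and is no separate trait. Several listed transcripts were also common in the stop-codon genes that the selection left out, 70.9% (59.6 to 80.6) and 78.6% (49.2 to 95.3). Genes without a stop-codon site had several in 10.4% (8.47 to 12.7) and 5.65% (3.76 to 8.11). A stop-codon site can be the only count of a listed transcript. In the genes left out by the selection it was so in 30 of 81 and 5 of 14 stop-codon transcripts. The gap to genes without such a site therefore cannot be separated from the grouping itself. Low identifier versions were common among the transcripts with the stop-codon site, and likewise among transcripts with no body site in other genes. An Ensembl identifier ends in a version that goes up when the model changes, and 46 of 65 stop-codon transcripts with ADAR-SUGP1 (70.8%, 58.2 to 81.4) were at version 1, beside 18 of 55 other edited transcripts of the 69 genes (32.7%, 20.7 to 46.7) and 34.2% (31.0 to 37.6) of edited transcripts of genes without a stop-codon site. With GPATCH8-ADAR these shares were 4 of 6 (66.7%, 22.3 to 95.7), 5 of 11 (45.5%, 16.7 to 76.6) and 30.0% (25.9 to 34.4). The stop-codon transcripts of the genes left out by the selection were at version 1 in 51 of 81 (63.0%, 51.5 to 73.4) with ADAR-SUGP1 and 8 of 14 (57.1%, 28.9 to 82.3) with GPATCH8-ADAR. Transcripts with no body site in genes without a stop-codon site were at version 1 in 66.7% (56.5 to 75.8) and 59.3% (38.8 to 77.6). Stop-codon transcripts of the 69 genes with no body site were so in 43 of 57 (75.4%) and 4 of 6 (66.7%). Low versions were thus not particular to stop-codon transcripts. In 7 of the 69 genes (10.1%), among them CPSF3L, DDX39A, ENOSF1, FKBP8, GRK6 and PIEZO1, a further transcript was listed with 0 in every region, beside 33 of the 91 other stop-codon genes (36.3%) and 156 of all 1348 genes (11.6%).

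**Figure D4:**
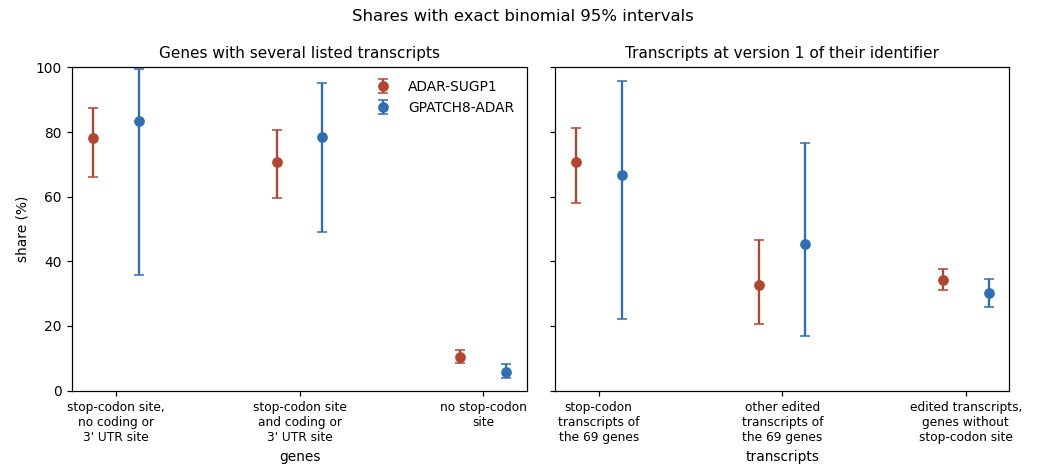
Shares (%) with exact binomial 95% intervals for ADAR-SUGP1 and GPATCH8-ADAR: genes with several listed transcripts (left) and transcripts at version 1 of their identifier (right). Stop-codon genes of both kinds lie above genes without a stop-codon site on the left (70.9% or more against 10.4% or less), and the leftmost GPATCH8-ADAR points rest on 6 genes and 6 transcripts. A stop-codon site can be the only count of a listed transcript, so the gap on the left cannot be separated from the grouping. Not drawn on the right are transcripts with no body site in genes without a stop-codon site (66.7% with ADAR-SUGP1 and 59.3% with GPATCH8-ADAR).

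Genes of RNA processing and export formed a group of 13, sorted by known function after their values were seen. All 13 had a stop-codon site with ADAR-SUGP1 (19 sites), beside 64 of all 69 genes. Every one of the 69 has a stop-codon site by selection, so such counts, here and in the groups below, only describe the members. The groups were not counted over all listed genes. RBM5, a regulator of alternative splicing that itself carries a G-patch, had 2 stop-codon sites in ENST00000404526.2 and 4 intronic sites in ENST00000347869.3. SON, a nuclear-speckle protein that also carries a G-patch, had 1 of each. RNPC3, a protein of the minor spliceosome, had 2 stop-codon and 3 intronic sites. Each of SRSF6 (an SR protein), LUC7L3 (a U1 snRNP-associated factor), BCLAF1, WDR83, CNOT3 (a subunit of the CCR4-NOT deadenylase) and the paralogous RNA helicases DDX39A and DDX39B had 1 stop-codon and 1 intronic site. CPSF3L, HNRNPU and ZRSR1, given above, complete the group, and ZRSR1 was its gene with a stop-codon site with GPATCH8-ADAR.

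Genes of the ribosome and of translation numbered 8, and their stop-codon sites were all from the ADAR-SUGP1 list (10 stop-codon and 16 intronic sites there). RPL3 and RPL6, of the large subunit, had 1 stop-codon and 3 intronic sites each. The intronic sites of RPL6 were spread over ENST00000202773.9 (2) and ENST00000553205.1 (1), while those of RPL3 lay in its stop-codon transcript ENST00000401609.1. GNL3, nucleostemin, had 1 stop-codon and 3 intronic sites over 3 transcripts, and TRIT1, a tRNA isopentenyltransferase, had 1 of each. RPS10, RPS15, DDX56 and WBSCR22 were described above.

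Metabolic enzymes and their regulators numbered 11, of which 9 had stop-codon sites with ADAR-SUGP1 and 2 with GPATCH8-ADAR. The glycolytic enzymes ENO1 and PKM had 1 stop-codon site each with ADAR-SUGP1, with 3 and 1 intronic sites in another transcript. ENOSF1, whose splicing is known to change with SF3B1 mutation, had 1 stop-codon site in ENST00000585128.2 and 4 intronic sites in ENST00000383578.3. OAZ1, the antizyme of ornithine decarboxylase, whose translation needs a programmed frameshift past an early stop codon, had 1 stop-codon site in ENST00000590943.2 and 1 intronic site in ENST00000582888.4. FLAD1 (FAD synthase), ISYNA1 (inositol phosphate synthase) and NARFL (current symbol CIAO3, of iron-sulfur protein assembly) had 1 of each with ADAR-SUGP1, and DHDDS, an enzyme of dolichol synthesis, had 1 of each with GPATCH8-ADAR.

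Mitochondrial proteins numbered 6, all with stop-codon sites with ADAR-SUGP1. MPV17, of the inner membrane, had 1 stop-codon and 4 intronic sites, and SSBP1 (the single-stranded DNA-binding protein) and the outer-membrane channel VDAC2 had 1 of each. FKBP8, an outer-membrane immunophilin, had 1 stop-codon and 1 5′ UTR site and no intronic site. Genes of genome maintenance, chromatin and transcription numbered 7. The replicative helicase subunit MCM5 had 1 stop-codon and 3 intronic sites, and the histone chaperone NASP and ZNF655 had 1 of each.

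Protein-turnover genes numbered 7, all with stop-codon sites with ADAR-SUGP1. The autophagy receptor SQSTM1 had 1 stop-codon and 2 intronic sites. PSMD4 (a ubiquitin receptor of the proteasome), the deubiquitinase UCHL1, UFD1L (current symbol UFD1, a cofactor of the p97 segregase), CDK5RAP3 and COMMD4 had 1 of each. The widest group, the cytoskeleton, membrane trafficking and signalling, had 14 genes, 12 with stop-codon sites with ADAR-SUGP1 and 2 with GPATCH8-ADAR. CPNE1, a calcium-dependent phospholipid-binding protein, had 1 stop-codon site in ENST00000430570.1 and 5 intronic sites in ENST00000352393.4. ARFGAP1, a GTPase activator at the Golgi, and the clathrin adaptor GGA1 had 1 and 2. PI4KB, RAB34, SCRIB, STX4 and the nuclear transport factor NUTF2 had 1 of each with ADAR-SUGP1. CDV3 (with GPATCH8-ADAR), TMEM106C and RP11-1407O15.2 were in no group and had 1 of each.

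Of the 69 genes, 10 were on both lists (14.5%, beside 10.8% of all protein-coding genes listed), and 1 of these 10, ZRSR1, had a stop-codon site in both, beside 3 of all 145 protein-coding genes on both lists (2.07%). The 10 have a stop-codon site in at least 1 list by selection and the 145 need not, so these last 2 shares cannot be compared. In 7 of the 10 (70.0%), the same transcript carried intronic sites with both fusions, beside 97 of the 145 (66.9%). The 145 include genes with coding or 3′ UTR sites, which the selection took away, so this pair of shares is not like for like either. In these 7 genes the stop-codon site was listed with 1 fusion. The kinase gene AKT1 had 1 stop-codon and 1 intronic site with ADAR-SUGP1, and 0 and 1 with GPATCH8-ADAR, both intronic counts in ENST00000554581.1. PSMD4, UCHL1 and ZNF655 had the same counts as AKT1. CPSF3L had 3 stop-codon and 3 intronic sites with ADAR-SUGP1, and 0 and 1 with GPATCH8-ADAR, and ENOSF1 had 1 and 4, and 0 and 1. The stop-codon site was on the other list in PIEZO1, a mechanically gated ion channel, which had 0 stop-codon and 1 intronic site with ADAR-SUGP1, and 1 and 1 with GPATCH8-ADAR. TTLL3, a tubulin glycylase, had 1 intronic site with ADAR-SUGP1, and 1 stop-codon and 1 5′ UTR site with GPATCH8-ADAR. DDX56 had 2 promoter sites with GPATCH8-ADAR, in ENST00000421223.1, the transcript that held its stop-codon and 5′ UTR site with ADAR-SUGP1. Promoter sites were otherwise at 0 in the 69 genes and were present in 0.603% of protein-coding genes with ADAR-SUGP1 and 0.602% with GPATCH8-ADAR.

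Membership was also counted in lists set by symbol patterns or names, beside 69 of 1348 (5.12%) for all protein-coding genes listed. Ribosomal proteins gave 4 of 29 (13.8%) and splicing factors 3 of 29 (10.3%; HNRNPU, RBM5, SRSF6). Ubiquitin and proteasome genes gave 1 of 31 (PSMD4), zinc finger genes 1 of 40 (ZNF655) and replication and repair genes 1 of 17 (MCM5). Translation factors and tRNA synthetases gave 0 of 26, mitochondrial genes by symbol pattern 0 of 29, chromatin regulators 0 of 7, and factors of translation termination and nonsense-mediated decay 0 of 1. The lists were not tested, and numbers this small do not order them.

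Just outside the selection, 71 of the 91 other stop-codon genes had exactly 1 coding (40) or 3′ UTR (31) site. FBXL12, an F-box protein, differed from the 69 genes by 1 site: with GPATCH8-ADAR it had 1 stop-codon site in ENST00000590808.1 and 1 intronic site in ENST00000586651.1, but with ADAR-SUGP1 it had 1 stop-codon site in the same transcript and 1 site in the 3′ UTR of ENST00000589438.1. SLC26A11 had 2 stop-codon sites, 1 coding and 1 intronic site with ADAR-SUGP1. ACY1 had 1 stop-codon site in one transcript and 1 coding site in another, and in ASB16 and ATP2B4 1 transcript held both the stop-codon and a 3′ UTR site. Just inside, 55 genes with ADAR-SUGP1 and 6 with GPATCH8-ADAR had the minimum of 1 stop-codon site.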

How the data were processed

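RNA-seq reads were processed by the authors with Trimmomatic and STAR on build hg19, per the submitters' processing notes. How sites were called, with which thresholds and annotation, how far the stop-codon and promoter regions reach, and each library's read depth are not given in the labels or headers used here. Per the file headers, the authors deposited whole-number counts of editing sites, not reads, per Ensembl transcript in 7 region columns for each fusion, with both replicates in 1 count. The whole-transcript column equals 5′ UTR, coding, 3′ UTR and intron together ("body sites" here). Blank lines (572 in the GPATCH8-ADAR table) were skipped. Counts of protein-coding transcripts (1216 with ADAR-SUGP1, 544 with GPATCH8-ADAR) were summed per gene symbol; no stop-codon site lay in other transcript types. The selection was checked on made-up tables. Of the 69 symbols, 61 were current in RefSeq (GRCh38.p14), 6 matched as a synonym, and MUM1 and RP11-1407O15.2 had no unique match. A gene of the 69, another just outside the selection and a gene list are not reported here.

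Intervals are exact binomial (Clopper-Pearson) 95% intervals, computed with scipy 1.17.1 and pandas 2.3.3 in Python 3.11.15. No test was run, since each fusion has 1 pooled value. The members and lists were chosen with earlier results of these data known. Named genes were those with 2 or more stop-codon sites, with a stop-codon site in both lists, with 5′ UTR or promoter sites, with the most intronic sites, in a list, or just outside the selection; other genes were added by function after their values were seen. The alternatives tried were other counting units, transcript types, minimum counts and updated symbols.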

Additional observations from a re-analysis of the deposited data

How the results depend on the processing

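The number of selected genes, 69, moved little with all transcript types (69), updated symbols (69) and coding and 3′ UTR counts of 0 in the same list alone (71). The number rose to 103 with the selection applied to each transcript, so membership depends on summing over the transcripts of a gene. With a minimum of 2 stop-codon sites the number was 9. The share of genes with a body site, 87.5% with ADAR-SUGP1 and 83.3% with GPATCH8-ADAR, was 12.5% and 0% when the body site had to lie in the stop-codon transcript, 42.9% (6 of 14) and 0% (0 of 1) among genes with 1 listed transcript, and 95.3% and 100% when sites of overlapping genes counted too, an alternative added after the data were seen. With a minimum of 2 stop-codon sites it was 77.8% (7 of 9) with ADAR-SUGP1, and no gene was left with GPATCH8-ADAR. The share of genes with several listed transcripts was unchanged with all transcript types. No paired analysis was possible because each deposited count pools both replicates, and no replicate could be left out for the same reason. Depth per library is unknown, and its part in which genes were listed was not tested.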
